A study of Homo sapiens with 4 samples.

Results

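The RNAs described here are the structural RNAs of RNase P (RPPH1), RNase MRP (RMRP), the 7SK particle (RN7SK), the signal recognition particle (RN7SL1 and RN7SL2), telomerase (TERC), vaults (VTRNA1-1, VTRNA1-2 and VTRNA1-3) and the Ro particle (RNY1). They were chosen by name, as the transcripts whose identifier is paired with one of these 10 genes. Of the 10 genes, 6 are paired with a transcript, and their 10 transcripts stand among 65423 transcripts in all. These 6 are RPPH1, RMRP, TERC and the 3 vault RNAs. RN7SK, RN7SL1, RN7SL2 and RNY1 are paired with no transcript of the table, and no level is given for them. A transcript of theirs under an identifier that RefSeq and GENCODE release 29 do not pair with a symbol would not have been found.

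RNA of MDA-MB-231-LM2 cells (LM2) and of MDA-MB-231 cells was sequenced. MDA-MB-231 is a breast cancer cell line without the estrogen receptor, labelled parental, and LM2 is its subline, labelled as forming lung metastases at a high rate. LM2 was grown in DMEM with fetal bovine serum in air with CO2, and MDA-MB-231 in Leibovitz medium with the same serum in air alone, and these culture differences and the cell line itself cannot be told apart. LM2 stands for a single subline. For either line 2 samples are labelled, but the count table used here has 1 column, and the sources used here do not say if it is 1 library or a pool. There is therefore no replicate check, and no test between the cell lines was possible. Counts summed to 128985870 in LM2 and to 130689252 in MDA-MB-231. A ratio sets the count of LM2, divided by its total, over that of MDA-MB-231 treated likewise. Each interval is an exact (Clopper-Pearson) interval at 95%, which covers counting error only and not the spread between cultures. RPKM is the count scaled to transcript length and column total, and levels of different RNAs are compared on that scale only. The labelled identity was checked by marker genes. All 6 genes listed as present in this line were counted in both, and 1 of them, the mesenchymal marker VIM, was higher in LM2, with 262027 counts against 153536 in MDA-MB-231. The other 5 were lower, AXL with 52456 counts in LM2 and 70460 in MDA-MB-231 and PLAU with 13473 and 18800 among them, and the median log2 ratio of the 6 was -0.32. The estrogen receptor ESR1 had 8 counts in LM2 and 2 in MDA-MB-231, the progesterone receptor PGR 2 and 7 and the leukocyte marker PTPRC 7 and 8. Of the genes listed as near 0 in this line, the epithelial marker EPCAM was nevertheless at an RPKM of 1.60 in LM2 and 1.61 in MDA-MB-231, and the collagen gene COL1A1 at 0.696 and 0.270.

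These RNAs are not translated. They form the core of particles with proteins, and several of them are made by RNA polymerase III. RNase P trims the leader of precursor tRNAs, and RNase MRP, which shares most of its proteins, cuts precursor ribosomal RNA. The telomerase RNA carries the template from which telomere repeats are copied, and it is made by RNA polymerase II. Vaults are large cytoplasmic particles of the major vault protein, and the vault RNAs are bound to them in part. RPPH1 and RMRP have their promoter upstream of the gene, whereas vault RNAs have boxes A and B inside the transcribed sequence, as tRNAs have.

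Sequences are shown first for the vault RNAs, since their likeness limits how far their reads can be assigned. The genes lie on the plus strand of chromosome 5 (GRCh38, GENCODE release 29): VTRNA1-1 at chr5:140711275-140711373, VTRNA1-2 at chr5:140718925-140719013 and VTRNA1-3 at chr5:140726158-140726246. VTRNA2-1 (chr5:136080470-136080597, minus strand), a related RNA that is not one of the 10, is shown for comparison and was chosen after its values were seen. Capitals mark matches to the letters GCNNAGNGG (core of box A) and GTTCGANNC (box B), which do not overlap. Each sequence is 1 base longer than the length listed with its counts.
VTRNA1-1: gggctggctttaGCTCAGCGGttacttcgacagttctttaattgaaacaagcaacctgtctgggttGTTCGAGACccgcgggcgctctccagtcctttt
VTRNA1-2: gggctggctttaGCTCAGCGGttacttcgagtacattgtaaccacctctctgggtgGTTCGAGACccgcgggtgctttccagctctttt
VTRNA1-3: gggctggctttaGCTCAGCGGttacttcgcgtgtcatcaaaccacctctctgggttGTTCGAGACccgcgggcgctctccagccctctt
VTRNA2-1: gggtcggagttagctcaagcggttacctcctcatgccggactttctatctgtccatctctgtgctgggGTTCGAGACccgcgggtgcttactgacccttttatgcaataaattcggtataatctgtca
Each of VTRNA1-1, VTRNA1-2 and VTRNA1-3 held 1 match of either box on the printed strand and none on the other strand. VTRNA2-1 held box B and no match of the box A letters. Near its start it reads gctcaagcgg, which is 1 base longer than the GCTCAGCGG of the others. The letters searched have a fixed spacing, so the missing match does not show that VTRNA2-1 lacks a box A. Among 4844 GENCODE transcripts of 80 to 130 bases, 10.5% held the box A letters and 0.289% the box B letters on either strand. Only 3 of them held both on the given strand, and these are VTRNA1-1, VTRNA1-2 and VTRNA1-3 themselves. The share with box B likewise includes the RNAs printed above. The first 29 bases were the same in all of VTRNA1-1, VTRNA1-2 and VTRNA1-3. VTRNA1-2 and VTRNA1-3 were identical at 87.8% of 90 aligned columns, VTRNA1-1 and VTRNA1-2 at 81.8% of 99 and VTRNA1-1 and VTRNA1-3 at 82.8% of 99. The longest stretch shared by a pair was 34 bases, between VTRNA1-1 and VTRNA1-3. A read inside such a stretch cannot be assigned to 1 gene, and the sources used here do not say how such reads were counted.

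TERC lies on the minus strand of chromosome 3. Its start (chr3:169764941-169765060) is shown for the template of the telomere repeat, of which the letters searched are in capitals, and its end (chr3:169764520-169764659) for the 90 bases, in capitals, by which the GENCODE model runs past the RefSeq model.
TERC start: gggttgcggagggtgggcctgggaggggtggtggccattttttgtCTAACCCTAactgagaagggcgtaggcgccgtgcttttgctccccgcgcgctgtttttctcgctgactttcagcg
TERC end: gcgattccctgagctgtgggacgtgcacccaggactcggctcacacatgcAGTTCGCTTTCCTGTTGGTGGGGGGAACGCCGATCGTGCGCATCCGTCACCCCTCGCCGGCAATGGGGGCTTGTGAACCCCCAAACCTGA
The letters CTAACCCTA stand at positions 46 to 54 of the transcript, once on the printed strand and not on the other strand. They were found on either strand in 34 of 47515 GENCODE transcripts of 451 to 631 bases (0.0716%), TERC itself included.

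RMRP (chr9:35657751-35658018, minus strand) is shown whole, with the bases that its shorter model leaves out in capitals, 1 at the start and 3 at the end.
RMRP: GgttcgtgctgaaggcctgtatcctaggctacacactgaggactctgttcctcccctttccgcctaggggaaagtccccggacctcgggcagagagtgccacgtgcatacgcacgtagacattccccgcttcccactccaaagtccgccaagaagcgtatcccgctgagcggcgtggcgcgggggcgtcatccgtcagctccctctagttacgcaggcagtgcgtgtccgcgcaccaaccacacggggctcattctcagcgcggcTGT
For RPPH1 and RMRP the stretch before the gene is shown, because each shares it with a protein-coding gene that runs the other way, PARP2 and CCDC107. Both stretches were taken from the RefSeq promoter table (GRCh38.p14), written on the minus strand. That of RMRP stops short of the gene, whose RefSeq start is at chr9:35658019, and the bases between are not shown. Capitals mark the octamer letters ATTTGCAT and the letters TATAA.
RPPH1 upstream, chr14:20343412-20343531: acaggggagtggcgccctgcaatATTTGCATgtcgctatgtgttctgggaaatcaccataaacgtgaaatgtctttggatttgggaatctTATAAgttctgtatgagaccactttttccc
RMRP upstream, chr9:35658042-35658241: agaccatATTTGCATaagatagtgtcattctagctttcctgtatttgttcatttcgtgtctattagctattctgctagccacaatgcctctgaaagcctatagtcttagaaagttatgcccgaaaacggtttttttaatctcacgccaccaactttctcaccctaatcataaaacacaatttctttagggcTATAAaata
TATAA stood 26 to 30 bases before the RefSeq start of RPPH1 and 27 to 31 bases before that of RMRP. At RPPH1 the same letters also match the other strand, overlapping by all but 1 base. The octamer stood 90 to 97 bases before RPPH1 and 208 to 215 bases before RMRP, on the printed strand only. Of 35116 RefSeq promoters of 300 bases, 1.77% held the octamer, 20.4% held TATAA and 0.575% held both, on either strand. The promoters of PARP2 and CCDC107 are among them, and both stretches shown are shorter than 300 bases. A match describes the letters only and is neither a site nor a cause.

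Of the 6 RNAs, TERC and the 3 vault RNAs had higher levels in LM2 than in MDA-MB-231, by 1.57-fold to 1.85-fold. RPPH1 was 1.12-fold higher and RMRP had a ratio of 0.969. Counts are relative to the column total, so more RNA per cell and more cells with the RNA cannot be told apart. None of the 6 was over 2-fold in either direction. Of 15427 genes averaging 50 counts or more, 4.56% exceeded 2-fold upward in LM2 and 6.86% downward. Of 534 other transcripts of at most 350 bases with the same minimum, 2.62% were over 2-fold higher and 1.87% lower, and of 351 of at most 200 bases 2.56% were higher and 0.57% lower. A fold of 1.5, chosen after the ratios were seen, was passed by 4 of the 6 RNAs in the direction of higher in LM2 and by none in the other direction. Among the 15427 genes 10.7% were over 1.5-fold higher and 15.4% lower, among the 534 short transcripts 15.0% and 8.43%, and among the 351 shortest 16.5% and 5.13%. The 3 vault RNAs share sequence and a chromosomal cluster, so the 4 are not 4 separate observations. The median log2 ratio was 0.70 over the 6 RNAs, -0.00 over the 15427 genes, 0.14 over the 534 short transcripts and 0.22 over the 351.

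RPPH1, the catalytic RNA of RNase P, had 1646280 counts in LM2 and 1487744 in MDA-MB-231 (NR_002312, 341 bases). Its RPKM was 37429 in LM2 and 33384 in MDA-MB-231. This is a log2 ratio of 0.17 (0.16 to 0.17). RPPH1 took 1.28% of all counts in LM2 and 1.14% in MDA-MB-231. The counting error is smaller than this difference, but among 15427 genes 34.8% had a larger ratio. The shorter Ensembl model of the gene (ENST00000516869.1, 333 bases) had 99.5% of these counts in either cell line. RPPH1 lies on the minus strand of chromosome 14 (chr14:20343071-20343411, GRCh38). AL355075.4, annotated there as an antisense RNA of 638 bases on the same strand (chr14:20343048-20343685), contains it whole. AL355075.4 had 1646380 counts in LM2 and 1487813 in MDA-MB-231, which is 100 and 69 more than RPPH1, and was named after its counts were seen. Its value is that of RPPH1 and no further observation.

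RMRP, the RNA of RNase MRP, had 1450476 counts in LM2 and 1516995 in MDA-MB-231 (NR_003051, 268 bases). Its RPKM was 41960 in LM2 and 43312 in MDA-MB-231, the highest of the 6 RNAs in both cell lines. The ratio was 0.969 (0.967 to 0.971), or -0.05 on the log2 scale. RMRP took 1.12% of counts in LM2 and 1.16% in MDA-MB-231. It ranked 5 by RPKM among all transcripts in both cell lines, and RPPH1 ranked 8. These ranks count models and not genes, since rank 4 was the shorter model of RMRP and rank 7 that of RPPH1. The Ensembl model of the same length (ENST00000602361.1) had the same counts. The model without the 4 bases in capitals above (ENST00000363046.1) had 10766 fewer counts in LM2 and 12652 fewer in MDA-MB-231, and its log2 ratio was -0.04.

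Both RNAs were near each other in level, and their order was the same in the 2 cell lines. The RPKM of RPPH1 was 0.892 times that of RMRP in LM2 and 0.771 times in MDA-MB-231. Together they took 2.40% of counts in LM2 and 2.30% in MDA-MB-231, and all 6 RNAs took 2.42% and 2.31%. Nearly all counts of the 6 RNAs are thus those of RPPH1 and RMRP. The sequences of both RNAs were identical at 52.9% of 344 aligned columns, with a longest shared stretch of 9 bases.

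**Figure D1:**
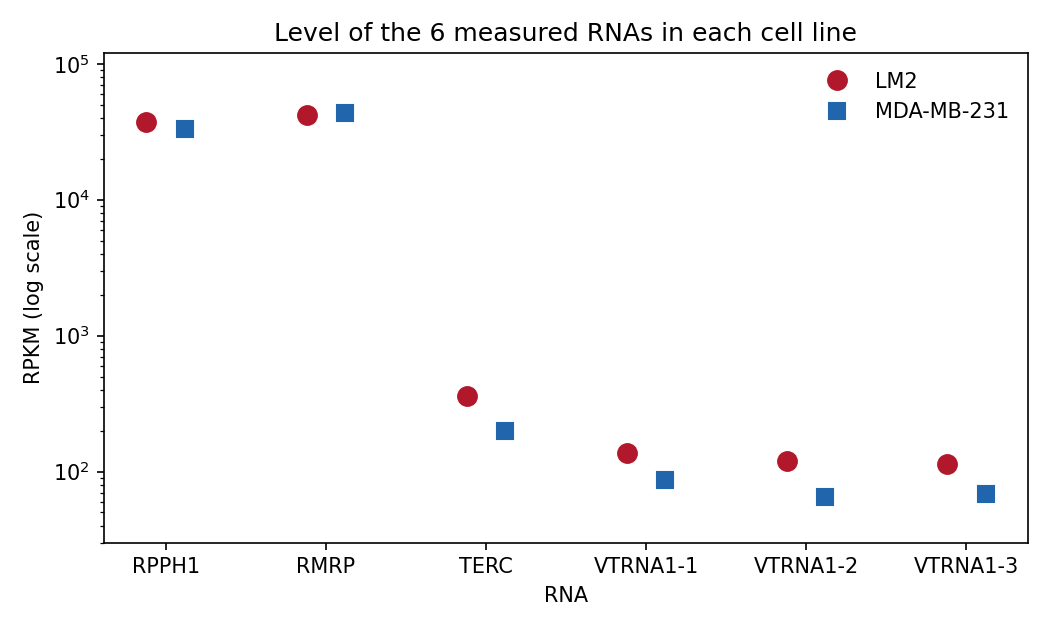
RPKM (y axis, log scale) of the 6 measured RNAs (x axis) in LM2 (red circles) and MDA-MB-231 (blue squares), 1 value per cell line and no error bars. RPPH1 and RMRP lie between 33384 and 43312, TERC at 361 in LM2 and 198 in MDA-MB-231, and the vault RNAs between 64.6 and 137.

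TERC, the RNA of telomerase, had 25208 counts in LM2 and 14012 in MDA-MB-231 (ENST00000602385.1, 541 bases). Its RPKM was 361 in LM2 and 198 in MDA-MB-231. TERC was 1.82-fold higher in LM2 (1.79 to 1.86), a log2 ratio of 0.87 (0.84 to 0.90). It took 0.0195% of counts in LM2 (0.0193% to 0.0198%) and 0.0107% in MDA-MB-231 (0.0105% to 0.0109%). Among 15427 genes, 5.85% had a larger ratio, and 29 of the 534 short transcripts did, all of which are shorter than TERC. The RefSeq model (NR_001566, 451 bases) had 24977 counts in LM2 and 13851 in MDA-MB-231 at the same log2 ratio of 0.87. The 90 further bases of the longer model, in capitals above, therefore added 231 counts in LM2 and 161 in MDA-MB-231, so that 99.1% and 98.9% of the counts of TERC fell within the RefSeq model.

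VTRNA1-1, which binds the autophagy receptor SQSTM1, had 1729 counts in LM2 and 1115 in MDA-MB-231 (NR_026703, 98 bases). It was 1.57-fold higher in LM2 (1.46 to 1.70), the smallest ratio of the vault RNAs. For VTRNA1-2 and VTRNA1-3, which have like lengths and the closest sequences, the counts were also close. VTRNA1-2 had 1360 counts in LM2 and 743 in MDA-MB-231 (NR_026704, 88 bases). It was 1.85-fold higher in LM2 (1.69 to 2.03), the only one of the 6 whose interval took in 2-fold. VTRNA1-3 had 1290 counts in LM2 and 782 in MDA-MB-231 (NR_026705, 88 bases). It was 1.67-fold higher in LM2 (1.53 to 1.83). The direction was thus the same for all of them, and they were then compared in pairs by the share of the pair's counts that VTRNA1-1 took. VTRNA1-1 is longer than the others, so its shares were compared between the cell lines only and do not rank its level. Against VTRNA1-2 it took 56.0% in LM2 (54.2% to 57.7%) and 60.0% in MDA-MB-231 (57.7% to 62.2%). These intervals only just do not overlap, with near ends of 57.73% in LM2 and 57.74% in MDA-MB-231. Against VTRNA1-3 it took 57.3% in LM2 (55.5% to 59.0%) and 58.8% in MDA-MB-231 (56.5% to 61.0%), with intervals that overlap. Of all 15427 genes, 9.01% had a larger ratio than VTRNA1-1, 5.65% than VTRNA1-2 and 7.51% than VTRNA1-3. Of the 534 transcripts of at most 350 bases, 12.5% had a larger ratio than VTRNA1-1, 5.06% than VTRNA1-2 and 8.99% than VTRNA1-3. Summed, the 3 vault RNAs had 4379 counts in LM2 and 2640 in MDA-MB-231, 1.68-fold higher in LM2 (1.60 to 1.76).

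Per length, VTRNA1-1 stood highest of the vault RNAs in both cell lines, at an RPKM of 137 in LM2 and 87.1 in MDA-MB-231. VTRNA1-2 had an RPKM of 120 in LM2 and 64.6 in MDA-MB-231. VTRNA1-3 had 114 in LM2 and 68.0 in MDA-MB-231, so the order of VTRNA1-2 and VTRNA1-3 differed between the cell lines. Of the counts of this pair, VTRNA1-2 had 51.3% in LM2 (49.4% to 53.2%) and 48.7% in MDA-MB-231 (46.2% to 51.3%). Both intervals take in 50%, so no difference beyond counting error was seen between VTRNA1-2 and VTRNA1-3 in either cell line. Reads of shared stretches may have been counted in both genes, which would bring the counts closer. The intervals do not cover this, here or in the pairs with VTRNA1-1, so equal levels cannot be concluded. VTRNA2-1, which is counted as a vault-like RNA by name and lies elsewhere on chromosome 5, had 838 counts in LM2 and 728 in MDA-MB-231, a ratio of 1.17 (1.05 to 1.29). This interval lies below those of VTRNA1-1, VTRNA1-2 and VTRNA1-3.

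**Figure D2:**
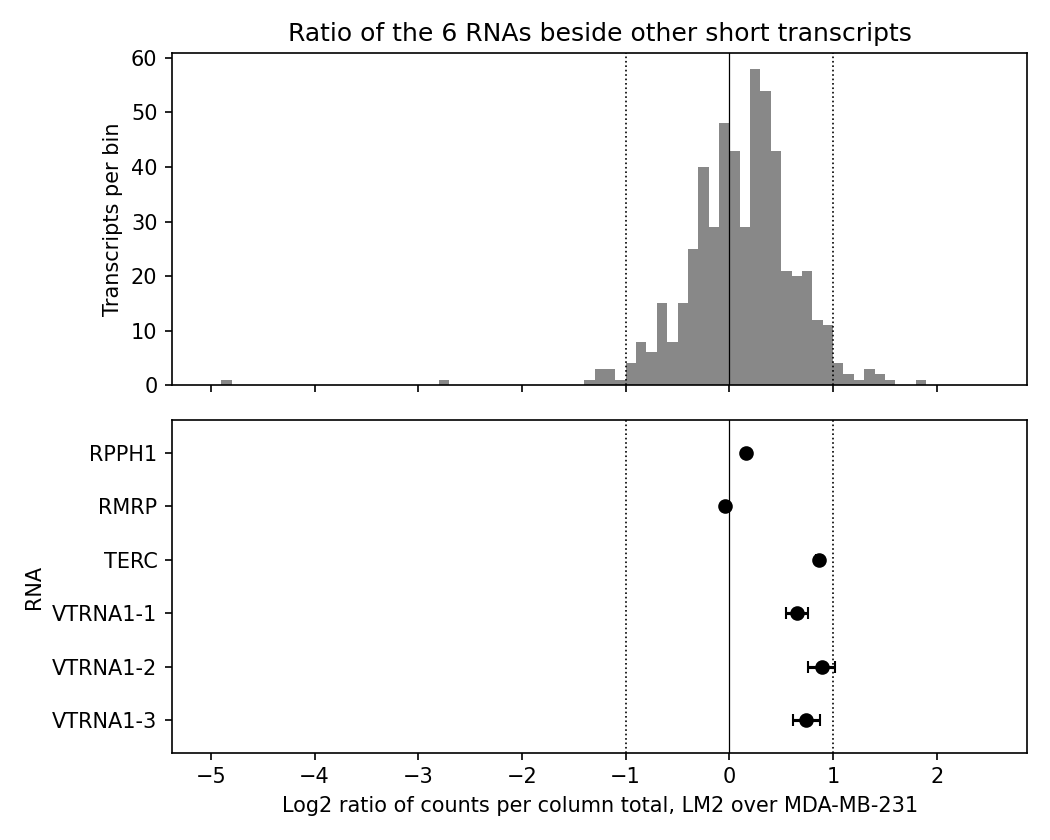
Both panels have the log2 ratio of LM2 over MDA-MB-231, from counts per column total, on the x axis. Top, 534 other transcripts of at most 350 bases with a mean of at least 50 counts (y axis, transcripts per bin). Bottom, the 6 RNAs with exact 95% counting intervals, of which RPPH1 and RMRP lie near 0 and TERC and the vault RNAs between 0.65 and 0.89. Dotted lines mark 2-fold.

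The proteins of the particles were set beside their RNAs, with 1 transcript per gene. In the RNase P and MRP list, all 11 proteins were measured, 8 were higher in LM2 and the median log2 ratio was 0.38. Over all genes, 7655 of 15427 were higher in LM2 and the median was -0.00. None was over 2-fold. RPP25, a subunit that binds the RNA of both enzymes, had 2342 counts in LM2 and 1296 in MDA-MB-231, a ratio of 1.83 (1.71 to 1.96). RPP30 had 2562 counts in LM2 and 1722 in MDA-MB-231, a ratio of 1.51 (1.42 to 1.60). POP7, the partner of RPP25, had 1994 counts in LM2 and 2235 in MDA-MB-231, a ratio of 0.904 (0.851 to 0.961). RPP40, named after its values were seen, was the only subunit over 1.5-fold lower, with 570 counts in LM2 and 869 in MDA-MB-231. The RNAs of the 2 enzymes themselves had ratios of 1.12 and 0.969.

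In the telomerase list, 10 of 12 proteins were higher in LM2, against 7655 of all 15427 genes. Their median log2 ratio was 0.21, against -0.00 over all genes, and none was over 2-fold. TERT, the reverse transcriptase of telomerase, was low in both cell lines, with 53 counts in LM2 and 104 in MDA-MB-231. Its ratio was 0.516 (0.364 to 0.726), opposite in direction to that of TERC. DKC1, the pseudouridine synthase that binds the end of TERC, had 6481 counts in LM2 and 4770 in MDA-MB-231, a ratio of 1.38 (1.33 to 1.43). WRAP53, which brings TERC to Cajal bodies, had 1626 counts in LM2 and 1049 in MDA-MB-231, a ratio of 1.57 (1.45 to 1.70). RUVBL2, an ATPase of telomerase assembly, had a ratio of 1.10 (1.07 to 1.14). TERC thus had a larger ratio than each of these proteins. TERT counts are too few for more than a wide interval.

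The major vault protein MVP, which forms the shell of the vault, had 8501 counts in LM2 and 9575 in MDA-MB-231, a ratio of 0.900 (0.874 to 0.926). The vault RNAs, at 1.57-fold to 1.85-fold, lay on the other side of 1. Of the 7 proteins of vaults and of vault and Y RNAs, 6 were above 0 on the log2 scale, against 7655 of all 15427 genes. None of the 7 passed 1.5-fold, where 10.7% of all genes were higher in LM2 by more than this and 15.4% lower. Their median was 0.10, against -0.00 over all genes. SRSF2, a splicing factor reported to bind vault RNA, had 20958 counts in LM2 and 16235 in MDA-MB-231, a ratio of 1.31 (1.28 to 1.34).

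RNA polymerase III and its factors had a median near that of all genes, with SNAPC2 as the gene farthest from it. Of 30 genes, 17 were above 0 on the log2 scale, against 7655 of all 15427 genes, with a median of 0.05, and none was over 2-fold. SNAPC2, a subunit of the complex that binds the upstream element of promoters such as those of RPPH1 and RMRP, had 641 counts in LM2 and 1273 in MDA-MB-231, a ratio of 0.510 (0.463 to 0.561). SNAPC1, another subunit of the same complex, had 6036 counts in LM2 and 4352 in MDA-MB-231, a ratio of 1.41 (1.35 to 1.46). MAF1, the repressor of RNA polymerase III, had a ratio of 0.933 (0.902 to 0.965). BDP1, a part of the initiation factor TFIIIB, had 6192 counts in LM2 and 6488 in MDA-MB-231, and its interval on the log2 scale, -0.10 to 0.00, took in 0.

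**Figure D3:**
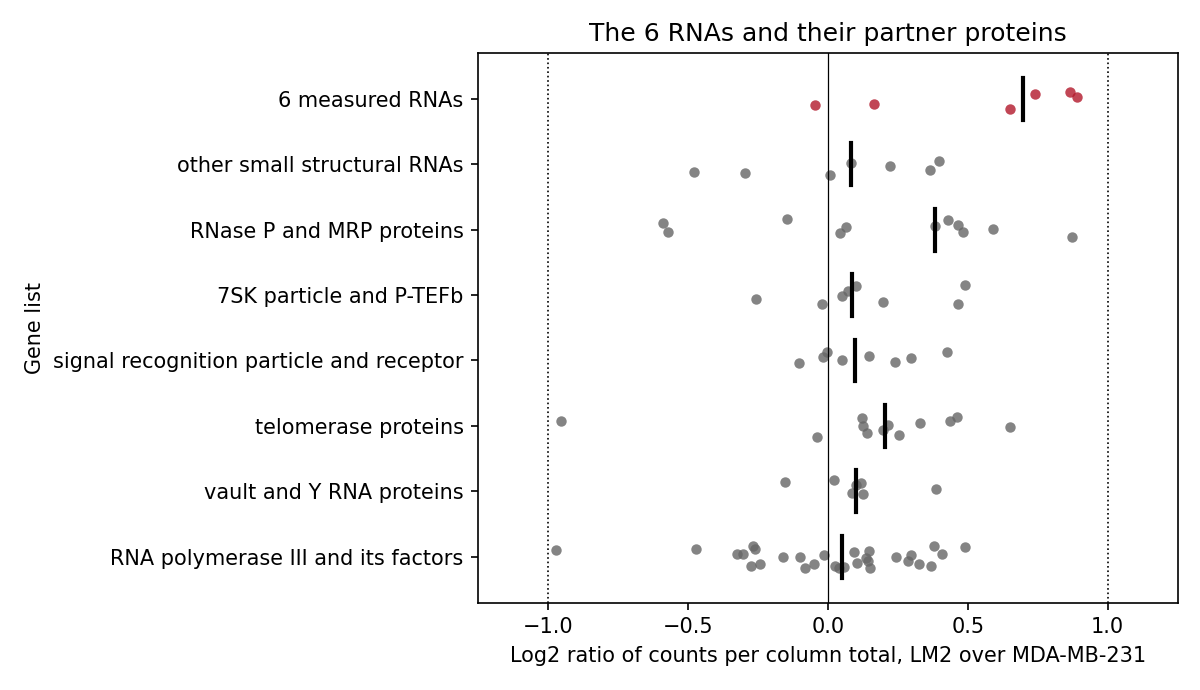
Log2 ratio of counts per column total, LM2 over MDA-MB-231 (x axis), in 8 gene lists (y axis). Each point is a gene with a mean of at least 50 counts, black bars are medians, and dotted lines mark 2-fold. The median is 0.70 for the 6 RNAs (red), 0.38 for the RNase P and MRP proteins, 0.21 for the telomerase proteins and 0.05 for RNA polymerase III.

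Genes next to the RNAs were compared in the RefSeq order of GRCh38, taking those that averaged 50 counts or more. PARP2, a DNA repair enzyme whose gene starts 224 bases from RPPH1, had 1565 counts in LM2 and 1108 in MDA-MB-231, a ratio of 1.43 (1.32 to 1.55). CCDC107, which starts 273 bases from RMRP, had 1240 counts in LM2 and 1375 in MDA-MB-231, a ratio of 0.914 (0.846 to 0.987). Each RNA and its divergent neighbour thus had a ratio on the same side of 1, with PARP2 above RPPH1. On the other flank, CCNB1IP1, 9792 bases from RPPH1, had a ratio of 1.30 (1.21 to 1.41), and TESK1, 47717 bases from RMRP, had a ratio of 0.617 (0.549 to 0.694).

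ACTRT3, the nearest measured protein-coding gene to TERC at 1861 bases, had 223 counts in LM2 and 92 in MDA-MB-231, a ratio of 2.46 (1.92 to 3.17). On the other side of TERC and 100898 bases away, MECOM had 3133 counts in LM2 and 4212 in MDA-MB-231, a ratio of 0.754 (0.719 to 0.790). The 30 nearest measured protein-coding genes of TERC had a median log2 ratio of 0.06, and 3 of them had a larger ratio than TERC. ZMAT2, the nearest to VTRNA1-1, had 5095 counts in LM2 and 4456 in MDA-MB-231, a ratio of 1.16 (1.11 to 1.21). On the other flank, 383242 bases from VTRNA1-1, PCDHB2 had 261 counts in LM2 and 164 in MDA-MB-231, a ratio of 1.61 (1.32 to 1.97), which lies within the range of the vault RNAs. The median of the 30 genes nearest to the vault RNAs was 0.22, and 3 to 5 of them were above the vault RNAs. Of these 30 genes, 25 were above 0, against 7655 of all 15427 genes. The median of the 30 genes nearest to RPPH1 was 0.26 and 19 of them were above RPPH1. For RMRP it was -0.07 with 14 above RMRP. Of all 15427 genes, 53.6% had a larger ratio than RMRP, 34.8% than RPPH1 and 5.85% than TERC. For the vault RNAs this share was 5.65% to 9.01%. These sets differ in reach. The farthest gene lay 599 to 607 kb from the vault RNAs, 1007 kb from RMRP, 2550 kb from RPPH1 and 9330 kb from TERC. PARP2, CCNB1IP1, CCDC107, TESK1, MECOM, ZMAT2 and PCDHB2 were named for their position, as the nearest measured gene on that side.

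**Figure D4:**
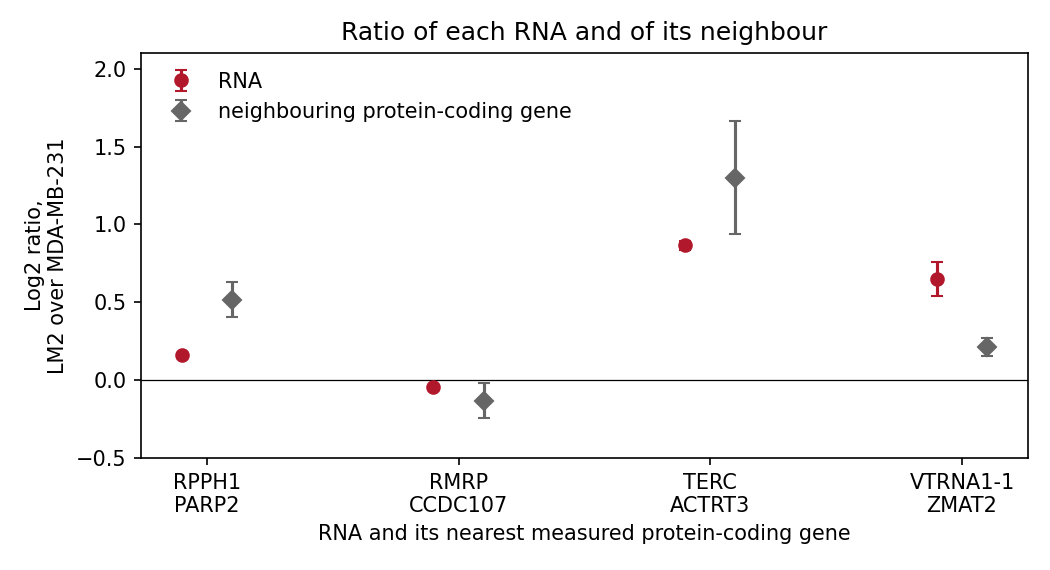
Log2 ratio, LM2 over MDA-MB-231 (y axis), of RPPH1, RMRP, TERC and VTRNA1-1 (red circles) and of the nearest measured protein-coding gene of each (grey diamonds), with exact 95% counting intervals. ACTRT3 lies at 1.30 and TERC at 0.87, PARP2 at 0.52 and RPPH1 at 0.17.

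For the RNAs that could be paired with no transcript, related values are given. RN7SKP176, a pseudogene of RN7SK of 318 bases, had 116328 counts in LM2 and 97180 in MDA-MB-231, a ratio of 1.21 (1.20 to 1.22). In GENCODE release 29, RN7SKP176 and RN7SK are identical at 83.9% of 330 columns over their whole length and at 97.9% of 239 columns in the best local alignment, with a longest shared stretch of 78 bases. Whether reads of RN7SK were counted as RN7SKP176 was not tested, and the value is not one of RN7SK. RN7SKP176 was named after its counts were seen. RN7SL1 and RN7SL2 are identical at 98.3% of 300 aligned columns, with a longest shared stretch of 205 bases. The most abundant transcripts of the table, ENST00000553637.1 (300 bases) and ENST00000580625.1 (297 bases), are paired with no gene, and no level of any of the 10 RNAs was read from them. Each took 8.17% of all counts in LM2 and 9.76% in MDA-MB-231, a ratio of 0.838, so both weigh in the column totals. Their counts were nearly equal, 10544311 and 10543789 in LM2. Their lengths are close to those of RN7SL1 (299 bases) and RN7SL2 (300 bases) in GENCODE release 29, and whether they belong to these genes was not tested. The protein partners of the 7SK particle and of the signal recognition particle were read from their own lists. All 8 of the 7SK list and all 8 of the other list were measured, none passed 1.5-fold, and the medians on the log2 scale were 0.09 and 0.10. Over all genes, 10.7% were over 1.5-fold higher in LM2 and 15.4% lower, and both lists are small. HEXIM1, which holds P-TEFb inactive when bound to 7SK, had a ratio of 0.987 (0.952 to 1.02). CCNT1, the cyclin of P-TEFb, had a ratio of 1.40 (1.35 to 1.47), and SRP9, which with SRP14 binds the Alu part of 7SL RNA, 1.23 (1.20 to 1.26).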

How the data were processed

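Total RNA of both cell lines was extracted with Trizol. Per the labels (the submitters' processing notes), the authors used bcl2fastq and TopHat2 (version 2.0.13) with hg19 (GRCh37). The sources used here do not give the counting program, the strand setting, the annotation or how reads of near-identical copies were treated. Fragment size selection, which bears on RNAs of 88 to 98 bases, is not given there either. Whole-number counts for each transcript were deposited and entered all ratios. The RPKM values were also made by the authors. Reads that overlap several transcripts entered the totals more than once, as the equal counts of 2 RMRP models and the near-equal counts of RPPH1 and AL355075.4 show. Shares are therefore shares of the summed counts of all transcripts and not of reads.

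Symbols were paired through RefSeq (GRCh38.p14) and GENCODE release 29. Sequences and positions are those of GRCh38, not of the alignment. A gene was represented by its transcript of highest mean count. Of 146 genes in 11 lists, 123 were paired. Members, lists and named genes were chosen with earlier results of these data known. From each list other than the members, names came from the 2 genes with the highest mean count and the 2 with the largest absolute log2 ratio at a mean of at least 50 counts, plus TERT. Marker genes were also given as a check of the cell line, and any other name is marked in the text. Ratios and intervals were tested on simulated counts that varied by counting error alone, independently for each transcript. That test cannot speak to the spread between cultures or to reads counted in several transcripts. Alternatives were TMM and upper-quartile factors (edgeR 4.0.16), size factors (DESeq2 1.42.0), other totals, models, pseudocounts and minimums. Python 3.11.15, R 4.3.3, scipy 1.17.1, Biopython 1.88 and matplotlib 3.10.9 were used.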

Additional observations from a re-analysis of the deposited data

How the results depend on the processing

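No paired analysis was possible because the deposited columns carry no replicate numbers, and no replicate could be left out. No alternative turned the direction of any of the 6 RNAs. Of 206 alternative values, 165 stayed within the interval of the main value or, for counts, within 1.5 times of it. This tally is no measure of robustness, since many of these outcomes could hardly differ. Each scaling shifted every log2 ratio by the same amount, the largest shift being -0.067. The intervals of some list medians ran from the lowest to the highest gene. Shares changed with the total they were divided by. With TMM factors the log2 ratio was 0.18 for RPPH1 and -0.032 for RMRP. Scaled to the total of NM_ transcripts it was 0.11 for RPPH1, -0.10 for RMRP and 0.81 for TERC. Without the 12 transcripts with most counts in the total it was 0.10 for RPPH1, -0.11 for RMRP and 0.80 for TERC. At a fold of 1.5 in place of 2, chosen after the ratios were seen, 4 RNAs passed, and 4 under each of the 6 other scalings, with VTRNA1-1 closest to that fold at a log2 ratio of 0.59 without the 12 transcripts. As a share of NM_ counts, RPPH1 had 2.001% in LM2 and 1.85% in MDA-MB-231, RMRP 1.76% and 1.89%, TERC 0.0306% and 0.0175%, VTRNA1-1 0.00210% and 0.00139%, VTRNA1-2 0.00165% and 0.000926%, and VTRNA1-3 0.00157% and 0.000975%. As a share of the total without the 12 transcripts, RPPH1 had 1.76% in LM2 and 1.64% in MDA-MB-231, RMRP 1.55% and 1.68%, TERC 0.0269% and 0.0155%, VTRNA1-1 0.00185% and 0.00123%, VTRNA1-2 0.00145% and 0.000820%, and VTRNA1-3 0.00138% and 0.000864%. Scaled to NM_ transcripts, 1 telomerase protein (TERT) and 1 factor of RNA polymerase III (SNAPC2) were over 2-fold, against 0 at the column total. Without a minimum count, 3 of the other small structural RNAs (RNY5, RNU5D-1 and RNU5E-1, at 0 to 5 counts) were over 2-fold, and at a mean of at least 200 counts 0 of the neighbouring genes, against 1 (ACTRT3). The median log2 ratio of short transcripts was 0.084 scaled to NM_ transcripts, 0.22 at most 200 bases and 0.063 at most 500 bases, where 9.30% were over 2-fold in either direction, against 4.49% at most 350 bases. The low counts of TERT limit its ratio.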

Other observations

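Of 31 genes in a list of other small structural RNAs, 13 are paired with a transcript and 7 have a mean of at least 50 counts. These 7 had a median log2 ratio of 0.08, and none was over 1.5-fold. Among all genes, 10.7% were over 1.5-fold higher in LM2 and 15.4% lower. SNORD3A, the U3 RNA of ribosomal RNA processing, had 1491712 counts in LM2 and 1857333 in MDA-MB-231, a ratio of 0.814 (0.812 to 0.816). This value is that of an Ensembl model of 699 bases. RNU6ATAC, an RNA of the minor spliceosome, had 22456 counts in LM2 and 21478 in MDA-MB-231, a ratio of 1.06 (1.04 to 1.08). RNU4ATAC, its partner in the same spliceosome, had 2715 counts in LM2 and 2090 in MDA-MB-231, a ratio of 1.32 (1.24 to 1.39). The value of BCYRN1 is that of a model of 13458 bases (959 counts in LM2 and 1353 in MDA-MB-231), while its RefSeq transcript of 191 bases had 22 and 16.

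RNAs of the Ro particle other than RNY1 were at few counts. RNY4, listed at 34 bases, had 26 counts in LM2 and 40 in MDA-MB-231, and RNY5, listed at 46 bases, had 0 and 5. At these listed lengths a count is hard to interpret. RNY4 and RNY5 were named after their values were seen.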
